A study of Homo sapiens with 12 samples.

Results

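LTR26, LTR55, LTR60, LTR81C, MER34C and MER101B are 6 of the 45 repeat elements whose RNA was counted in THP-1, a monocytic cell line established from a human leukaemia. They were taken by these names from the tables of both days, whatever their values. Each has a plus and a minus strand column, so they make up 12 of the 90 strand columns. Cells carrying SETDB1 sgRNA 9 were compared with cells carrying a non-targeting sgRNA at day 4 and at day 7. Each of these 4 groups had 3 libraries. All cells had been spin-transduced with a guide and put under 1 µg/ml puromycin from 48 h later. The series' design text names SETDB1 sgRNAs 6 and 9, while every SETDB1 sample title names sgRNA 9. The groups follow the titles. Nothing in the labels says that replicates were separate cultures, and the p-values therefore reflect the spread among the sequenced samples alone, part or all of which may be technical. For the fitted p-values, this spread was estimated partly from the other elements of the tables.

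A long terminal repeat (LTR) is the stretch of DNA that stands at each end of an endogenous retrovirus, a retroviral genome fixed in the germ line. LTRs carry the promoter and the polyadenylation signal of the provirus, and most survive in the human genome as solitary copies. LTR26, LTR60, MER34C and MER101B are LTRs of ERV1 (class I, gammaretrovirus-like) elements, and LTR81C is assigned to the older Gypsy-like LTR elements. SETDB1 is a methyltransferase of histone H3 lysine 9 that silences many retroviral sequences. The question behind the series is bidirectional transcription of such elements when SETDB1 is depleted.

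The tables summed to between 27388 and 58916 counts per library, and the 6 elements held 79 to 140 of these. SETDB1 itself and all 11 blood, epithelial and fibroblast marker genes looked for were not among the rows, so depletion of the target and the identity of the cells were not analysed here. The tables give no genome positions, sequences or lengths, so levels of different elements were not ranked. Levels are given as deposited counts or as normalised counts in CPM, which are scaled to the counts of these 45 elements, so that every fold change is relative to the other elements. In bulk RNA, a change in the number of transcribing cells and a change in RNA per cell cannot be told apart. Of the 12 columns, 3 had enough counts to be tested: LTR26 minus, LTR60 plus and MER34C minus. LTR26 minus and LTR60 plus passed the filter on low counts in every library of both arms. MER34C minus passed it in 3 of 6 SETDB1 libraries and 6 of 6 non-targeting libraries.

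LTR60 was the tested element that rose after SETDB1 sgRNA 9, and it rose in the plus column. At day 4 the deposited counts were 26, 40 and 49 in the SETDB1 libraries and 9, 11 and 13 in the non-targeting libraries. Every SETDB1 library was above every non-targeting library, in counts as in CPM. In CPM the means were 793 ± 228 in SETDB1 cells and 353 ± 89 in non-targeting cells (SD, n = 3 each). The rise was 2.25-fold, a log2 change of 1.17 ± 0.30 (SE; adjusted p = 0.00351 in the quasi-likelihood test of edgeR, by Benjamini and Hochberg over all 70 tested columns). It stayed past the threshold without scaling (log2 change 1.79), where the arms differ by table total too and the median of all tested features was 0.65.

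At day 7 LTR60 had 28, 40 and 36 plus counts in the SETDB1 libraries and 13, 16 and 9 in the non-targeting libraries. The groups again did not overlap, and the SETDB1 libraries lay close together. Mean levels were 678 ± 12 CPM in SETDB1 cells and 376 ± 84 CPM in non-targeting cells (SD, n = 3 each). The rise was 1.79-fold, a log2 change of 0.84 ± 0.30 (SE; edgeR adjusted p = 0.0157). This call was lost with DESeq2 (log2 change 0.76, adjusted p = 0.0502), in a fit of the 6 day 7 libraries alone (0.600, adjusted p = 0.0743) and with all low features kept (0.67, adjusted p = 0.0794). Without scaling it passed, at a log2 change of 1.44 (edgeR adjusted p = 0.000282). In that fit 37 of the 70 tested features were higher, 1 was lower and the median log2 change was 0.76. The LTR60 call was also lost without non-targeting day 7 replicate 1 (0.75, edgeR adjusted p = 0.0719) and without non-targeting day 7 replicate 3 (0.76, edgeR adjusted p = 0.0546).

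**Figure D1:**
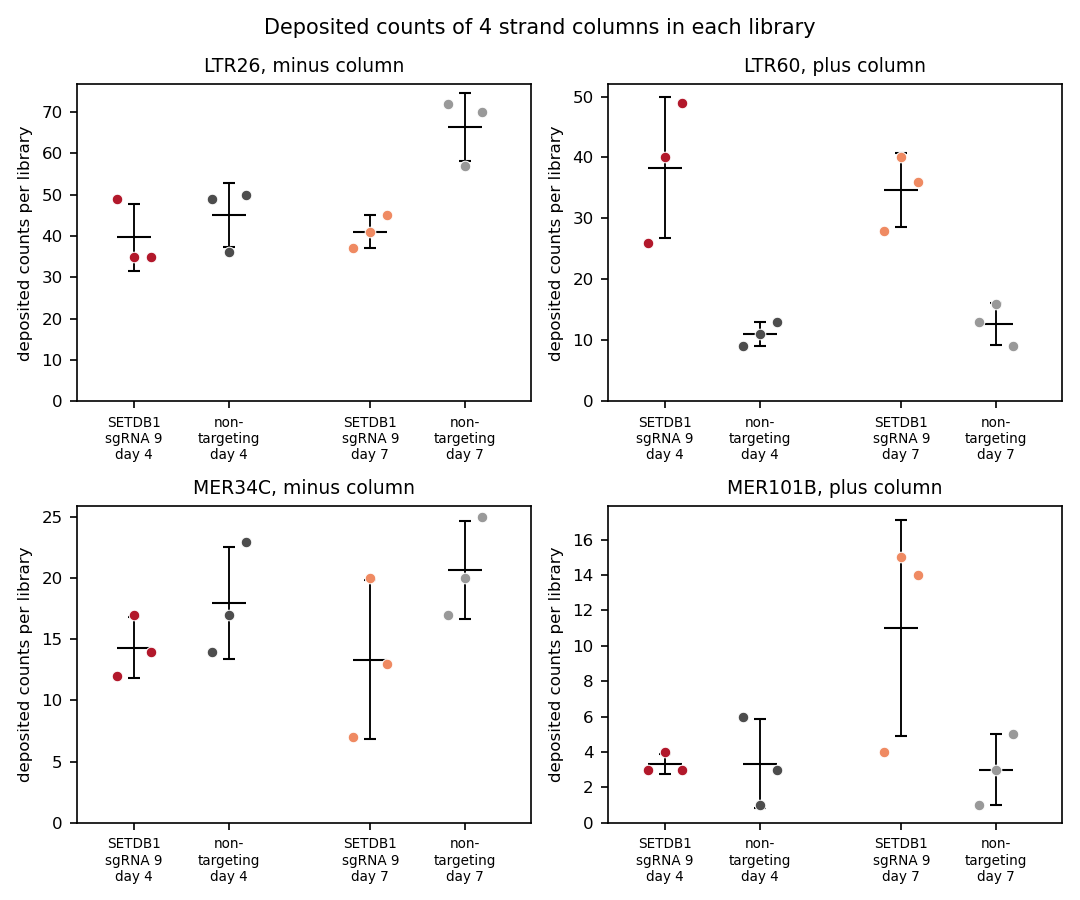
Deposited counts per library (vertical axis) of LTR26 minus, LTR60 plus, MER34C minus and MER101B plus in the 4 groups. Points are libraries and bars are the mean ± SD (n = 3); the SETDB1 libraries of LTR60 hold 26 to 49 counts, above the 9 to 16 of the non-targeting libraries.

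LTR26 moved the other way, in its minus column. At day 4 it had 49, 35 and 35 minus counts in the SETDB1 libraries and 49, 36 and 50 in the non-targeting libraries. The counts of the arms overlapped, while the SETDB1 libraries had the larger table totals. In CPM the arms did not overlap, with 825 ± 182 in SETDB1 cells and 1427 ± 254 in non-targeting cells (SD, n = 3 each). LTR26 minus fell to 0.576 of the non-targeting level, a log2 change of -0.80 ± 0.22 (SE; edgeR adjusted p = 0.00619). Without scaling the log2 change was -0.18, which did not pass (edgeR adjusted p = 0.583). The call was lost without SETDB1 sgRNA 9 day 4 replicate 3 (-0.63, edgeR adjusted p = 0.0661) and without non-targeting day 4 replicate 3 (-0.67, edgeR adjusted p = 0.0677).

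The fall of LTR26 at day 7 was visible in the deposited counts. The SETDB1 libraries held 37, 41 and 45 minus counts and the non-targeting libraries 72, 57 and 70. Every SETDB1 library was below every non-targeting library in counts, although 2 of the 3 SETDB1 table totals exceeded all those of the non-targeting libraries. Mean levels were 814 ± 116 CPM in SETDB1 cells and 2008 ± 423 CPM in non-targeting cells (SD, n = 3 each). LTR26 minus fell to 0.406 of the non-targeting level, a log2 change of -1.30 ± 0.21 (SE; edgeR adjusted p = 4.21e-06). It was the lowest of the 70 tested features at this day. Without scaling it still passed (log2 change -0.69, edgeR adjusted p = 0.0245), and leaving out any of the 12 libraries gave adjusted p between 1.65e-07 and 0.000163 in edgeR.

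MER34C is the third tested element, and it too was lower in its minus column. At day 4 it had 12, 17 and 14 minus counts in the SETDB1 libraries and 14, 17 and 23 in the non-targeting libraries. The counts overlapped, and the CPM values of the arms met without crossing, at 404.5 as the highest SETDB1 and 404.9 as the lowest non-targeting library. Mean levels were 302 ± 89 CPM in SETDB1 cells and 579 ± 186 CPM in non-targeting cells (SD, n = 3 each). The log2 change of -0.94 ± 0.35 (SE) passed narrowly (edgeR adjusted p = 0.0466). The call was lost with DESeq2 (adjusted p = 0.0612), with DESeq2 size factors in edgeR (adjusted p = 0.0538), in the day 4 libraries alone (adjusted p = 0.05005) and without scaling (log2 change -0.33, adjusted p = 0.50). It was also lost in edgeR without SETDB1 sgRNA 9 day 4 replicate 1 (adjusted p = 0.132) or 3 (0.154), without non-targeting day 4 replicate 2 (0.0586) or 3 (0.252), without non-targeting day 7 replicate 2 (0.0553), which enters only through the shared spread, and with L1P1_orf2 out of the table (0.0592).

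At day 7 MER34C minus had 7, 20 and 13 counts in the SETDB1 libraries and 17, 20 and 25 in the non-targeting libraries. Its level fell to 250 ± 81 CPM in SETDB1 cells, against 639 ± 228 CPM in non-targeting cells (SD, n = 3 each), and the CPM values did not overlap. The log2 change was -1.25 ± 0.35 (SE; edgeR adjusted p = 0.00283). Without scaling it was -0.63 and did not pass (edgeR adjusted p = 0.180), and no single library ended the call in the scaled fit (edgeR adjusted p between 0.000513 and 0.0369).

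**Figure D2:**
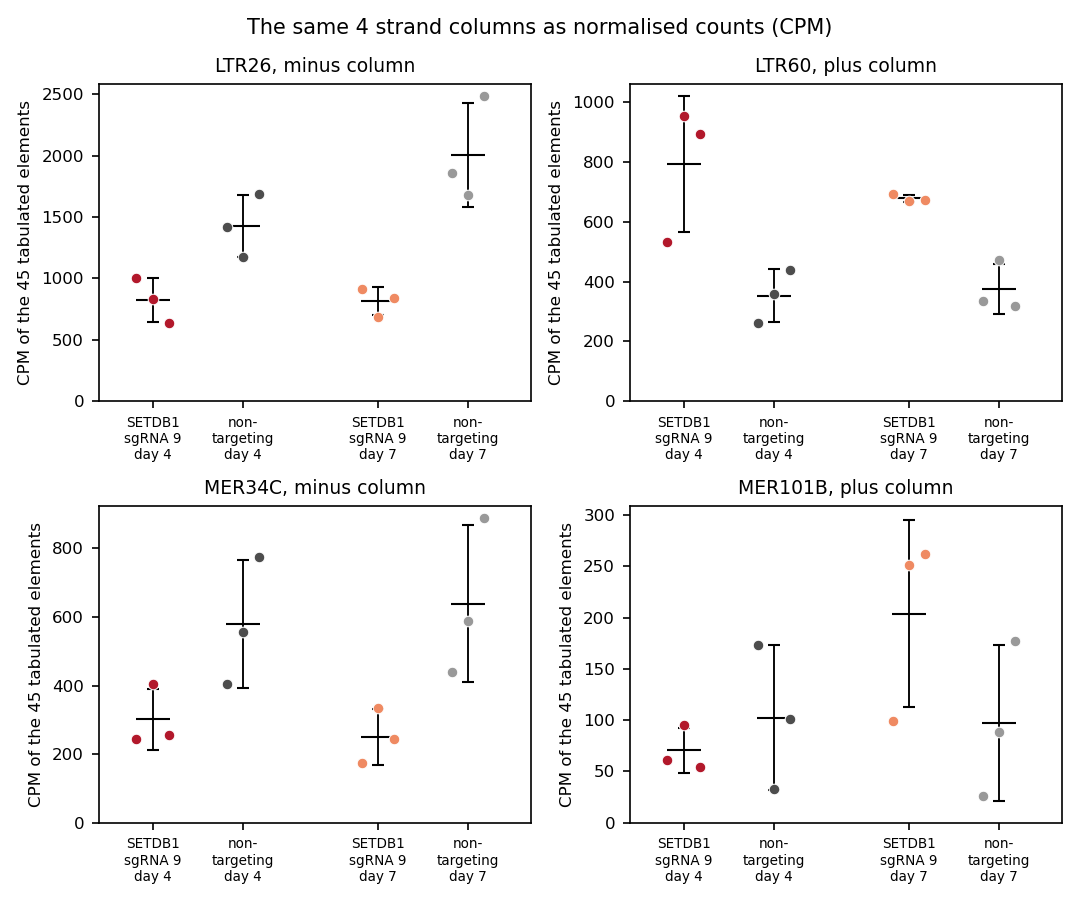
Normalised counts in CPM of the 45 tabulated elements (vertical axis) for the same 4 strand columns. Points are libraries and bars are the mean ± SD (n = 3); at day 7 LTR26 minus averages 814 CPM in SETDB1 cells and 2008 CPM in non-targeting cells.

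Set against the whole table, the 3 tested columns counted 1 higher and 2 lower at each day. Of all 70 tested features, 15.7% were higher and 8.57% lower at day 4, and 30.0% were higher and 25.7% lower at day 7. The libraries of the arms did not overlap in CPM for any of the 3 columns at either day, against 25.7% of all tested features at day 4 and 55.7% at day 7. With 3 columns tested these counts are a description only. LTR60 plus had the third highest log2 change of the 70 at day 4 and rank 11 at day 7. MER34C minus was the lowest and LTR26 minus the third lowest at day 4. At day 7 LTR26 minus was the lowest and MER34C minus the second lowest. The order among these lowest columns is not resolved, because their errors overlap. At day 4, for example, L1PBb_5end minus lay between MER34C minus and LTR26 minus at -0.88 ± 0.44 (log2, SE) and was not called. The median over all tested features was 0.04 at day 4 and 0.16 at day 7 on the log2 scale. The other LTR retrotransposon columns, 25 tested of 28, counted 2 higher and 4 lower at day 4 (median log2 change -0.01) and 7 higher and 9 lower at day 7 (median 0.12). Among them LTR4 and LTR23-int, which also carry LTR names, had 3 tested columns, with 1 higher and 0 lower at day 4 and 1 higher and 1 lower at day 7.

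**Figure D3:**
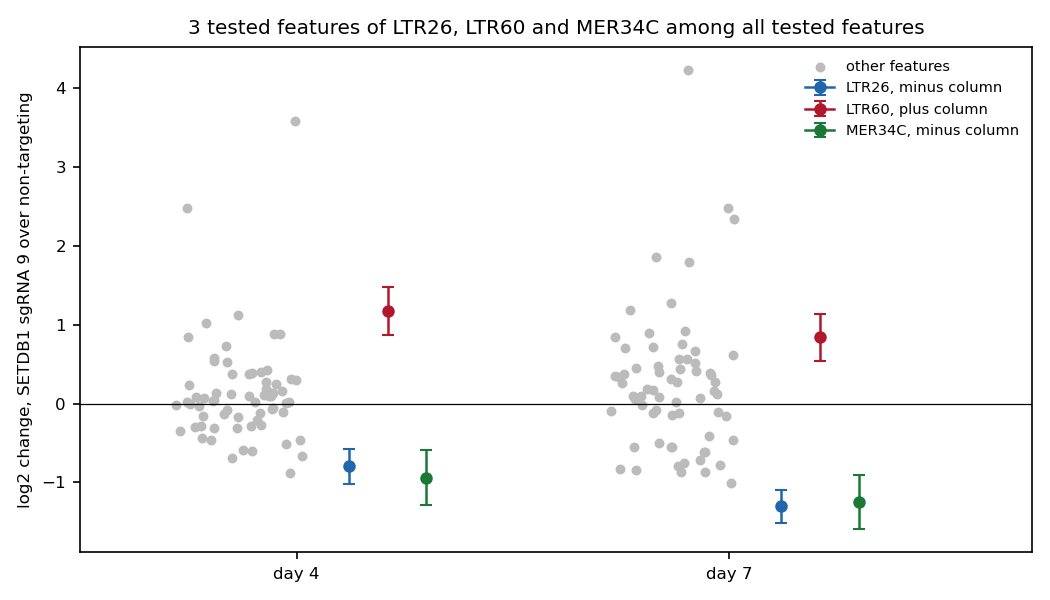
Log2 change of SETDB1 sgRNA 9 over non-targeting cells (vertical axis) at day 4 and day 7 for all 70 tested features. Grey points are other features and coloured points with bars are the 3 tested columns of LTR26, LTR60 and MER34C with their SE; LTR60 plus lies at 1.17 and 0.84, LTR26 minus at -0.80 and -1.30, and MER34C minus at -0.94 and -1.25.

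A ratio between columns of the same library does not depend on scaling. LTR60 plus counts per LTR26 minus count were 0.531, 1.14 and 1.40 in the SETDB1 libraries of day 4 and 0.184, 0.306 and 0.260 in the non-targeting ones. At day 7 they were 0.757, 0.976 and 0.800 in SETDB1 libraries and 0.181, 0.281 and 0.129 in non-targeting libraries. The mean ratio was 4.10 times as high in SETDB1 cells at day 4 and 4.29 times at day 7, with no overlap at either day (two-sided exact permutation p = 0.1 each, the smallest that 3 against 3 allows). This ratio sets a column that rose against one that fell in the same libraries. It therefore describes the changes above and is no independent test of them. MER34C minus counts per LTR26 minus count overlapped between the arms, at 0.377 ± 0.122 in SETDB1 cells and 0.406 ± 0.104 in non-targeting cells at day 4, and at 0.322 ± 0.152 and 0.315 ± 0.068 in the same order at day 7 (SD, n = 3 each; two-sided exact permutation p = 0.7 and p = 1).

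The make-up of the 6 elements' counts differed accordingly. LTR60 plus held 34.5% ± 8.5 of their summed counts in SETDB1 cells and 12.4% ± 1.9 in non-targeting cells at day 4, and 29.9% ± 2.0 in SETDB1 cells and 11.4% ± 3.7 in non-targeting cells at day 7 (SD, n = 3 each). LTR26 minus held 36.4% ± 9.4 in SETDB1 cells and 50.4% ± 5.1 in non-targeting cells at day 4, and 36.0% ± 6.6 in SETDB1 cells and 59.1% ± 5.0 in non-targeting cells at day 7 (SD, n = 3 each). For LTR60 the libraries of the arms were apart at both days, and for LTR26 at day 7 but not at day 4. Together the 6 elements took 0.219% ± 0.016 of all table counts in SETDB1 cells and 0.295% ± 0.059 in non-targeting cells at day 4. At day 7 they took 0.233% ± 0.010 in SETDB1 cells and 0.333% ± 0.084 in non-targeting cells (SD, n = 3 each).

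The difference in the SETDB1 effect between the days did not pass the threshold for any of the 3 columns. The day 7 effect minus the day 4 effect was -0.51 ± 0.31 for LTR26 minus (adjusted p = 0.284), -0.33 ± 0.44 for LTR60 plus (adjusted p = 0.675) and -0.31 ± 0.50 for MER34C minus (log2, SE; edgeR interaction test, adjusted p = 0.781). Over all features 5.71% were called in this test. Leaving out 1 library moved the difference to between -0.67 and -0.33 for LTR26 minus, -0.55 and -0.14 for LTR60 plus, and -0.595 and -0.029 for MER34C minus, with no call gained. Misses of this kind do not show that the effects were alike.

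Between day 4 and day 7 none of the 3 columns passed in either arm, against 12.9% of all features in SETDB1 cells and 5.71% in non-targeting cells. The share in SETDB1 cells, 8 features higher and 1 lower of 70, was not stable. It became 7 higher and 16 lower without non-targeting day 4 replicate 2, a library outside this comparison. None of the 3 columns passed in that fit either. In SETDB1 cells the log2 changes in the full fit were -0.03 ± 0.23 for LTR26 minus, -0.22 ± 0.24 for LTR60 plus and -0.19 ± 0.37 for MER34C minus (SE; edgeR adjusted p between 0.564 and 0.933). In non-targeting cells LTR26 minus was 0.48 ± 0.21 higher at day 7 (SE; edgeR, unadjusted p = 0.0272, adjusted p = 0.212). LTR60 plus (0.11 ± 0.37) and MER34C minus (0.12 ± 0.33) had an adjusted p of 0.913 each there (log2, SE; edgeR). The non-targeting libraries of day 4 and day 7 are also the controls of the SETDB1 comparisons. At day 7 the LTR26 gap between the arms was made of 814 CPM in SETDB1 cells, against 825 CPM at day 4, and of 2008 CPM in non-targeting cells, against 1427 CPM at day 4.

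**Figure D4:**
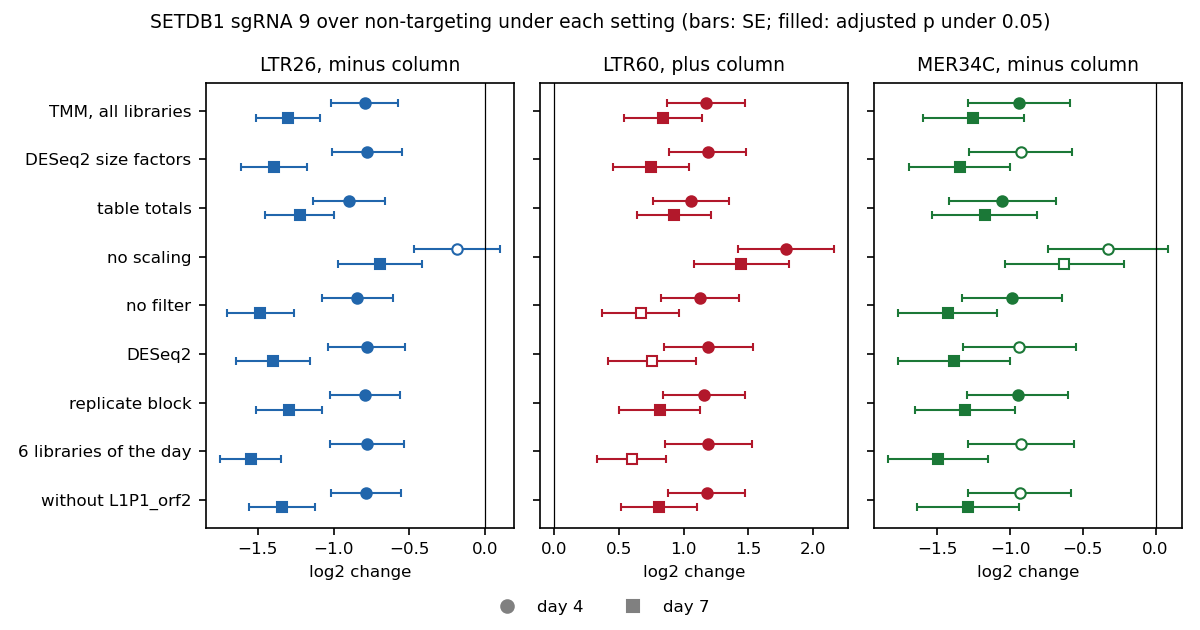
Log2 change of SETDB1 sgRNA 9 over non-targeting cells (horizontal axis, with SE) for the 3 tested columns under 9 settings of the analysis, circles for day 4 and squares for day 7. Filled symbols have an adjusted p under 0.05; LTR60 plus stays above 0 and the other columns stay below 0 in every setting drawn, and without scaling LTR26 minus at day 4 lies at -0.18.

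The remaining columns had too few counts to be tested, and their intervals cover counting error only. MER101B, whose plus column held 62 counts over the 12 libraries, had an interval above 1 at day 7. The minus column of LTR60, given below, had one too. No adjustment was made for the number of low columns looked at. At day 7 the plus counts of MER101B were 4, 15 and 14 in SETDB1 libraries and 1, 3 and 5 in non-targeting libraries. The SETDB1 libraries were higher in replicates 2 and 3, while replicate 1 lay within the range of the non-targeting libraries. The summed counts of 33 in SETDB1 and 9 in non-targeting cells gave a rate ratio of 2.41 (95% exact binomial interval 1.13 to 5.72). At day 4 the sums were 10 in each arm, a rate ratio of 0.651 (0.243 to 1.74). With all low features kept in the edgeR fit, MER101B plus did not pass at day 7 (log2 change 1.05 ± 0.58, SE, edgeR adjusted p = 0.167), but in that fit its day 7 level exceeded its day 4 level in SETDB1 cells (1.60 ± 0.55, adjusted p = 0.0459), as in 11 of the 85 features fitted (12.9%). MER101B minus summed to 4 counts in SETDB1 and 9 in non-targeting cells at day 4, and to 7 in SETDB1 and 4 in non-targeting cells at day 7.

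LTR26 plus, the weaker column of LTR26, had 4, 4 and 10 counts in SETDB1 libraries and 2, 3 and 3 in non-targeting libraries at day 4. At day 7 it had 7, 7 and 2 in SETDB1 libraries and 2, 5 and 3 in non-targeting libraries. Its rate ratio was 1.46 (0.606 to 3.89) at day 4 and 1.05 (0.448 to 2.59) at day 7. On counting error alone, both intervals lay just above the 0.576 and 0.406 to which the minus column fell. Those values have errors of their own (SE 0.22 at day 4 and 0.21 at day 7, log2), which this comparison leaves out. It therefore does not show that the columns differed. The difference between the columns of LTR26 did not pass in the strand test given below. MER34C plus summed to 19 counts in SETDB1 and 15 in non-targeting cells at day 4 (rate ratio 0.824, 0.397 to 1.74), and to 13 in SETDB1 and 12 in non-targeting cells at day 7 (0.711, 0.299 to 1.704). LTR55 had 2 counts in all, both in the plus column and each in a SETDB1 library, 1 at day 4 and 1 at day 7. LTR81C had 0 of 497746 counts in the 12 libraries together, and a count of 0 allows up to 0.000603% of the table. No change in LTR55 or LTR81C was detectable at this depth.

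Counts in both strand columns of the same library were seen for LTR26 and MER34C in 12 of 12 libraries, for MER101B in 11 and for LTR60 in 6. The sources used here do not say whether the columns refer to the strand of the genome or to the orientation of the element. Neither column can therefore be called sense or antisense to the LTR. Counts in both columns do not by themselves show that a copy was transcribed in both directions. LTR26 and MER34C lay mostly in the minus column, and LTR60 almost wholly in the plus column. The minus column held 86.7% ± 7.8 of LTR26 counts in SETDB1 cells and 94.2% ± 1.9 in non-targeting cells at day 4, and 88.4% ± 6.4 in SETDB1 cells and 95.04% ± 2.8 in non-targeting cells at day 7 (SD, n = 3 each). For MER34C it held 69.2% ± 8.0 in SETDB1 cells and 77.7% ± 9.5 in non-targeting cells at day 4, and 79.2% ± 9.4 in SETDB1 cells and 83.5% ± 5.4 in non-targeting cells at day 7 (SD, n = 3 each). The libraries of the arms overlapped for MER34C at both days and for LTR26 at both days.

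None of the 4 elements with enough counts for the strand test passed, against 16.7% of 42 elements at day 4 and 28.6% at day 7. The log2 odds of the minus column changed by -1.34 ± 0.70 for LTR26 at day 4 (unadjusted p = 0.0569, adjusted p = 0.217) and by -1.36 ± 0.68 at day 7 (unadjusted p = 0.0460, adjusted p = 0.107; SE, edgeR with a library block). The values of MER34C were -0.67 ± 0.70 and -0.74 ± 0.79, and those of MER101B, which rest on 13 to 40 counts per group, were -1.09 ± 1.27 and -1.05 ± 1.37 (day 4, then day 7; log2 odds, SE). Leaving out 1 library moved these values without a call: the LTR26 range was -1.73 to -0.68 at day 4 (highest without SETDB1 sgRNA 9 day 4 replicate 3) and, at day 7, -1.86 to -1.05. The MER34C range was -1.02 to -0.20 at day 4 (highest without non-targeting day 4 replicate 3) and, at day 7, -1.05 to -0.092 (highest without SETDB1 sgRNA 9 day 7 replicate 2). The MER101B range was -2.20 to -0.41 at day 4 and, at day 7, -1.77 to 0.63, where its sign turned without non-targeting day 7 replicate 1. For the 6 elements summed, the minus column held 51.0% ± 8.9 in SETDB1 cells and 75.1% ± 2.9 in non-targeting cells at day 4, and 52.7% ± 3.7 in SETDB1 cells and 79.3% ± 4.2 in non-targeting cells at day 7 (SD, n = 3 each). This summed share also moves with the make-up of the counts, in which LTR60 plus held a larger part in SETDB1 cells. It is therefore no measure of a strand change within an element. Over the whole table the minus column held 71.0% ± 4.3 in SETDB1 cells and 70.5% ± 2.2 in non-targeting cells at day 4, and 69.9% ± 1.4 and 74.6% ± 0.7 in the same order at day 7 (SD, n = 3 each).

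LTR60 was the exception in time. Its minus column had 1, 0 and 0 counts in the SETDB1 libraries of day 4 and 0, 5 and 9 in those of day 7. In non-targeting libraries it had 2, 0 and 1 at day 4 and 0, 2 and 0 at day 7. The day 7 sums of 14 in SETDB1 and 2 in non-targeting cells gave a rate ratio of 4.59 (95% exact binomial interval 1.05 to 41.6, counting error only), with SETDB1 replicate 1 at 0. The minus column thus held 1 of 116 LTR60 counts in SETDB1 cells at day 4 and 14 of 118 at day 7 (0.862%, 95% exact binomial interval 0.0218 to 4.71, and 11.9%, 6.64 to 19.1). In a comparison added after the data were seen, this change in SETDB1 cells passed (log2 odds 3.44 ± 1.12, SE, edgeR adjusted p = 0.0144), as did 19% of the 42 elements. With limma on log2 ratios of the strands it missed the threshold (2.15 ± 1.098, adjusted p = 0.332), as it did in edgeR without SETDB1 sgRNA 9 day 4 replicate 2 (adjusted p = 0.0822) or 3 (0.118), or without day 7 replicate 3 (0.212), which holds 9 of the 14 counts. Between SETDB1 and non-targeting cells the LTR60 minus share did not pass at day 4 (-2.96 ± 1.61, unadjusted p = 0.0676, adjusted p = 0.217) or at day 7 (1.19 ± 1.08, unadjusted p = 0.275, adjusted p = 0.481; log2 odds, SE, edgeR). Leaving out 1 library gave -4.78 to -1.94 at day 4, and 0.35 (without SETDB1 sgRNA 9 day 7 replicate 3) to 3.88 (without non-targeting day 7 replicate 2) at day 7. The time change in SETDB1 cells exceeded that in non-targeting cells by 4.15 ± 1.94, which did not pass after adjustment (log2 odds, SE, edgeR, unadjusted p = 0.0337, adjusted p = 0.202).

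**Figure D5:**
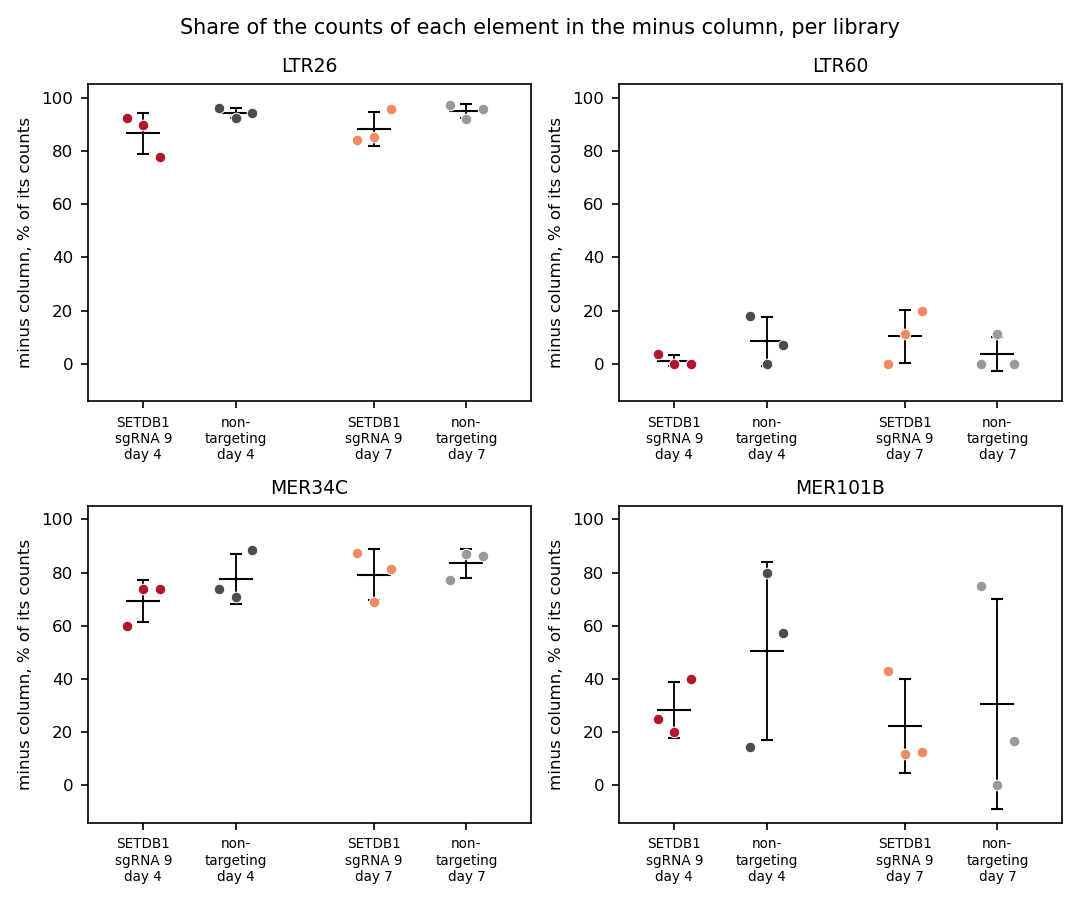
Share of the counts of LTR26, LTR60, MER34C and MER101B that lie in the minus column, in percent (vertical axis), in each library of the 4 groups. Points are libraries and bars are the mean ± SD (n = 3); LTR26 averages 86.7% in SETDB1 cells and 94.2% in non-targeting cells at day 4, and LTR60 lies at 20% or below in every library.

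The columns most like each tested one were sought by the root mean square difference of log2 CPM over the 12 libraries, each column centred on its own mean. For LTR26 minus they were the minus and plus columns of HUERS-P3b, an endogenous retrovirus (0.235 and 0.278 log2 units, against a median of 0.706 over the columns of all other elements). HUERS-P3b minus fell by 0.59 ± 0.14 at day 4 and by 0.84 ± 0.14 at day 7 (log2, SE, edgeR), beside 0.80 and 1.30 for LTR26 minus. For MER34C minus they were MSTB1 minus, an LTR of the MaLR group (0.336), and HUERS-P3b plus (0.369; median 0.741). For LTR60 plus they were the plus column of L1PBa_5end and the minus column of L1P1_5end, both 5′ end models of the L1 LINE (0.307 and 0.340; median 0.598). L1PBa_5end plus rose by 0.89 ± 0.14 at day 4 and 0.71 ± 0.14 at day 7, beside 1.17 and 0.84 for LTR60 (log2, SE, edgeR). L1P1_5end minus rose by 0.58 ± 0.16 at day 4 and its change of 0.34 ± 0.16 at day 7 did not pass (log2, SE, edgeR adjusted p = 0.0625). MSTB1 minus fell by 0.47 ± 0.13 at day 4 and by 0.87 ± 0.13 at day 7, and HUERS-P3b plus fell by 0.69 ± 0.15 and 0.78 ± 0.15 (log2, SE, edgeR). These likenesses were computed on the values that also gave the changes, and are a description.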

How the data were processed

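Stranded total RNA of 12 libraries was counted per repeat element and strand; per the labels' protocols, 100 ng of total RNA entered each library. The values are counts as deposited by the authors, whole numbers in a table for each day. The submitters' processing notes list CASAVA 1.8, BWA and HTSeq and assign them no step. Neither build nor repeat models, nor the choice of elements, nor the handling of multiply mapping reads, is given in the sources used here. LTR copies of related families share sequence, so their counts are uncertain to the extent that this counting could split them. Each of the 24 count columns was assigned through the sample description that heads its block, and 0 belonged to other samples.

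All features were fitted together in edgeR 4.0.16 (R 4.3.3): filterByExpr at defaults (minimum count 10, minimum total 15) left 70 of 90 features, table totals with TMM factors gave library sizes, and a quasi-likelihood fit used 4 groups (8 residual degrees of freedom). This fit moderates the spread of each feature toward that of all fitted features. The edgeR p-values therefore rest partly on the spread of other elements and not on the 8 degrees of freedom alone. The same holds for the minus share. The Benjamini-Hochberg adjustment ran over all 70, and an adjusted p under 0.05 is a call. The SE is the log2 change over the root of F. The minus share was fitted in edgeR on plus and minus columns side by side (2 per library, blocked by library), over 42 elements whose summed strands passed the filter. CPM of untested columns use the same factors. Alternatives were DESeq2 1.42.0 and its size factors, table totals, no scaling, no filter, the replicate block, day-wise fits, left-out libraries, and limma 3.58.1 for the minus share. The main edgeR fit and the edgeR fit of the minus share were also run on simulated data, the latter without spread beyond counting error. The alternatives were not. For the main fit the same dispersion was simulated for every feature. No outcome of these runs is given here, and they do not bear on the calls of columns with few counts. Every column of the 6 elements is named, with the 2 columns of other elements most like each tested one. The members, lists and tests were chosen with earlier results of these data known. No pair of libraries of a group looked like duplicates (chi-square over features, largest p = 7.52e-05). No p is given for values summed over the 6 elements.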

Additional observations from a re-analysis of the deposited data

How the results depend on the processing

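The direction of the SETDB1 effect at each day held for LTR26 minus, LTR60 plus and MER34C minus in every alternative and without any single library, and the LTR60 call at day 4 and the LTR26 call at day 7 passed in all of them. At day 4 the number of lower columns fell to 1 with DESeq2, with DESeq2 size factors, with the 6 day 4 libraries alone and with L1P1_orf2 left out (an alternative chosen after the data were seen), where 5 features in all were lower in each of these fits (6 in the full fit), and to 0 without scaling, where the count of all features became 35 higher and 0 lower. At day 7 the number of higher columns fell to 0 with DESeq2, without the filter and with the 6 day 7 libraries alone, while the higher calls over all features went from 21 to 14 of 70, 11 of 85 and 11 of 70 in the same order. The number of lower columns fell to 1 without scaling, where all features had 37 higher and 1 lower. Without scaling the median of all tested features was 0.65 at day 4 and 0.76 at day 7 (log2), and LTR26 and MER34C stayed below it. Between the days in SETDB1 cells, 2 low columns (MER101B plus and LTR60 minus) were higher without the filter, as were 11 of 85 features in all, and LTR26 minus turned to 0.066 with table totals, 0.048 without scaling and 0.024 without L1P1_orf2. For 2 values of that comparison DESeq2 gave no adjusted p. The LTR60 strand call in SETDB1 cells went to 0 calls with limma, with and without the replicate block. The cause of these changes was not tested.

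Leaving out each library gave 0 to 2 lower columns and 1 higher at day 4, and 2 lower and 0 to 1 higher at day 7. Over all 70 features these fits gave 7 to 12 higher and 3 to 7 lower at day 4, and 15 to 23 higher and 15 to 18 lower at day 7. The strand test gave 0 to 1 calls in SETDB1 cells over time. Its calls over all 42 elements are not given here for the left-out libraries or for limma. The log2 change between the days ranged from -0.19 to 0.15 for LTR26 minus and from -0.48 to 0.045 for MER34C minus in SETDB1 cells, and from -0.085 to 0.29 for LTR60 plus and -0.16 to 0.38 for MER34C minus in non-targeting cells. The log2 odds ranged from -1.77 to 0.63 for MER101B at day 7 and from -0.44 to 0.61 for LTR26 over time in SETDB1 cells. The difference in the 6 elements' share of the table, SETDB1 minus non-targeting, ranged from -0.0991 to -0.0433 percentage points at day 4 and from -0.134 to -0.0531 at day 7. With the replicate block the calls of the 3 columns were the same (1 higher and 2 lower at each day; LTR60 plus 1.16 at day 4 and 0.82 at day 7). Deviations of same-numbered libraries of a day correlated between -0.135 and 0.279. Differently numbered libraries were not set beside them, so these values cannot decide whether replicate numbers pair the libraries. Each tested value rests on 7 to 72 counts per library, which limits its precision.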
